A study of Mus musculus with 5 samples.

Results

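Protocadherin genes were taken as all symbols that start with Pcdh, which gave 71 of the 23420 gene symbols with a value in RNA of the mouse dentate gyrus (DG). Of these 71, 15 belong to the Pcdha cluster, 22 to Pcdhb and 22 to Pcdhg, and 12 lie outside the clusters. RNA-Seq was done on 5 libraries of pooled RNA, 1 per group, so no group had a replicate, and no p-value can be given. All mice were male, wild-type and of the outbred CD1 strain, aged 4 months by the labels and 3 months by the methods, and were housed for 4 weeks. LD mice lived singly with a locked disk. CE (complex environment) mice also had a locked disk, but with social housing and tunnels. RUN mice lived singly with a running disk. LD, CE and RUN each pooled 8 mice, while L-RUN and H-RUN each pooled 4, the lowest and the highest runners of the same 8 mice as RUN. RUN is therefore no independent sample beside L-RUN and H-RUN. The CE group differed from LD in social housing as well as in tunnels, and these cannot be told apart. The values are regularized log values, which are log2 expression values that DESeq2 shrinks towards each gene's mean, more strongly for genes with few reads. A mean of at least 5 over the 5 libraries was found for 63 of the 71 genes, which are called expressed here, among 13550 expressed genes in all.

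Protocadherins are the largest group of cadherins, adhesion proteins of the cell surface that are prominent in the nervous system. In the clusters, each variable exon has a promoter of its own, and single neurons express different sets of these isoforms, which bind the same isoform on a facing membrane and let the branches of a neuron recognize each other. The C-type isoforms at the end of the Pcdha and Pcdhg clusters (Pcdhac1, Pcdhac2, Pcdhgc3, Pcdhgc4 and Pcdhgc5) are not chosen in this random way and are found in many neurons. Non-clustered protocadherins are single genes with roles in axon growth, synapse formation and cell sorting, and the delta-1 and delta-2 groups differ in the length of the extracellular part and in conserved motifs of the tail.

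The error of these values could be judged from RUN alone, by setting it beside the linear mean of its parts, L-RUN and H-RUN. This assumes that RUN was an equal mixture of the RNA of these pools and that the 3 libraries were equally noisy, and every technical SD given here rests on it. Scaled to a difference between 2 libraries, this gave a technical SD of 0.02 to 0.05 depending on expression level, which covers technical noise but no difference between mice. The 63 expressed protocadherins had RUN values between 0.08 below and 0.10 above this mean. All 5 granule cell markers checked (Prox1, Dsp, C1ql2, Calb1 and Lct) were expressed, from 11.6 to 13.0 in LD. The summed level of 10 markers of leptomeningeal fibroblasts (cells of the brain's covering) was above LD by 0.24 in CE, and by 0.89 and 1.45 in RUN and L-RUN, and below it by 0.16 in H-RUN, on the log2 scale. In L-RUN, 10 of these 10 markers were higher than in LD, 7 of them by at least 0.3, and none of the 10 was at 0 in all libraries. The summed level of 5 CA pyramidal cell markers was 0.31 lower in L-RUN than in LD, with 3 of 5 lower by at least 0.3. The sums of 5 markers each of oligodendrocytes, astrocytes and microglia were also lower in L-RUN, by 0.22, 0.18 and 0.17, with 0, 0 and 1 of 5 markers higher. Of the granule cell markers, Prox1 was 0.41 lower and C1ql2 0.37 higher in L-RUN, and their sum was 0.06 lower. In pooled tissue, fewer cells of a type and less RNA per cell cannot be told apart.

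The protocadherins differed most from LD in L-RUN, and there they were lower. A difference of at least 0.3, the cut-off of the study's methods, was reached below LD by 6 of 63 members, or 9.52%, beside 2.33% of all expressed genes. These were Pcdh1, Pcdhac2, Pcdhgc3, Pcdhga11, Pcdh19 and Pcdhgc5. No member was higher by 0.3, beside 0.797% of all expressed genes. The median difference was -0.12 over the 63 members, and -0.002 over all expressed genes, whose middle 50% lay between -0.08 and 0.07. By a cut-off of 3 times the technical SD, 31 members (49.2%) were lower, beside 19.5% of all expressed genes, and only Pcdh8 was higher, beside 13.2%. L-RUN held the lowest of the 5 values for 51 of 63 members, beside 28.1% of all expressed genes. The summed glial and CA markers were lowest in L-RUN, and their sums were below LD in the other groups. Single markers did not all follow the sums. In H-RUN, 3 of 5 CA and 3 of 5 oligodendrocyte markers were above LD, and 1 of 5 each for astrocytes and microglia. The part of these markers in the protocadherin values, and that of the leptomeningeal signal, was not tested.

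**Figure D1:**
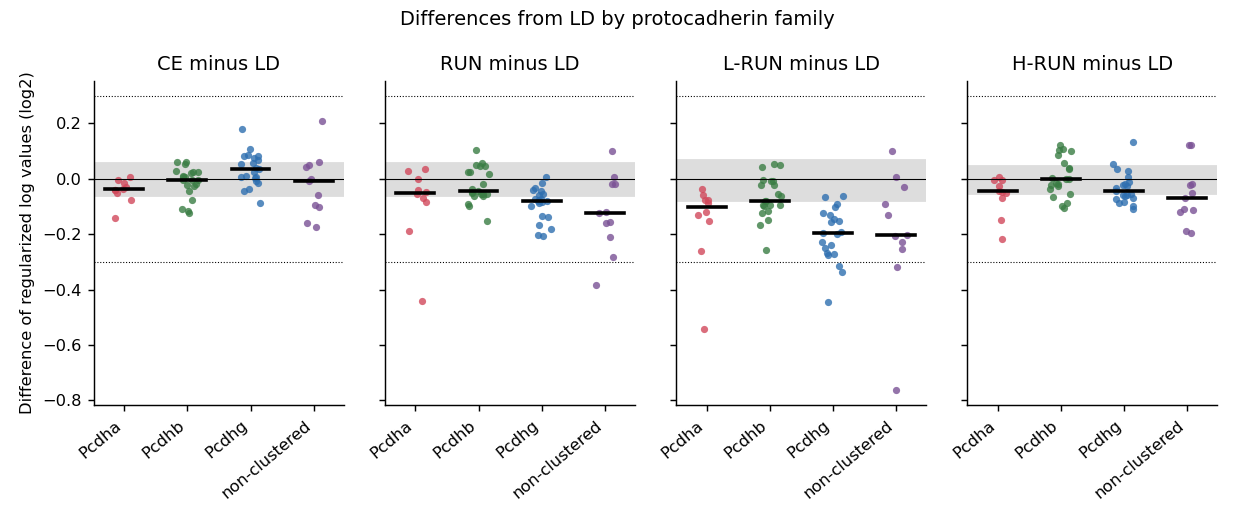
Difference of each expressed protocadherin from LD (log2 scale) in CE and the 3 running groups, by family, with black bars at family medians, grey bands over the middle 50% of all expressed genes and dotted lines at the cut-off of 0.3. In L-RUN, the medians of Pcdhg and of the non-clustered genes lie at -0.20, and those of Pcdha and Pcdhb at -0.10 and -0.08.

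Shrinkage sets how far a gene of low level can move, and most clustered members have low values. Among genes with a mean from 5 to 6, only 0.106% of all expressed genes were lower by 0.3 in L-RUN, against 2.62% of those with a mean of at least 9. Of the 12 members with a mean from 5 to 6, the 10 from 6 to 7 and the 21 from 7 to 8, none passed, while 2 of 10 from 8 to 9 and 4 of 10 above that did. The median difference of the members in these 5 classes of level ran from -0.08 to -0.24, and that of all genes from -0.01 to 0.02. The lower values in L-RUN were thus not limited to members of high level, although the cut-off was reached only there.

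Among the delta-1 genes (Pcdh1, Pcdh7, Pcdh9 and Pcdh11x), Pcdh1 had the largest difference from LD of all members. Pcdh1, an adhesion molecule of epithelia and brain, had values of 11.12 in LD and 11.06 in CE, and 11.00 in H-RUN, 10.74 in RUN and 10.36 in L-RUN. LD, CE and H-RUN thus lay close together, and L-RUN lay 0.76 below LD (technical SD 0.03), at 58.9% of the LD level. Against H-RUN the difference was -0.65. Pcdh9 was at 11.13, 11.03, 11.11, 11.01 and 10.87 in the same order, so that L-RUN alone lay more than 0.2 below LD. Pcdh7 was at 10.32 in LD and 10.36 in CE, and 10.44 in H-RUN, 10.30 in RUN and 10.23 in L-RUN, where the highest and the lowest value were those of the 2 running pools. Pcdh11x, an X-linked member, had its high value in CE, with 7.93 in LD and 8.14 in CE, and 7.88 in H-RUN, 7.94 in RUN and 7.94 in L-RUN. Its difference of 0.21 between CE and LD was 4.40 times the technical SD and below the cut-off.

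The delta-2 genes had 1 member above LD in every other group and 4 below it or near it. Pcdh19, the X-linked gene whose mutations cause an epilepsy of girls, was highest in LD, with 12.13 in LD and 11.96 in CE, and 11.94 in H-RUN, 11.85 in RUN and 11.81 in L-RUN. All 4 other libraries were below LD, by 0.17 in CE, 0.20 in H-RUN, 0.28 in RUN and 0.32 in L-RUN (technical SD 0.03). The L-RUN difference of Pcdh19 missed the cut-off after quantile normalization (-0.29) and against LD and CE averaged (-0.23). Pcdh17, which acts at presynaptic sites, had the same order of LD first, with 11.38 in LD and 11.28 in CE, and 11.19 in H-RUN, 11.17 in RUN and 11.17 in L-RUN, and the 3 running libraries did not differ from each other beyond the technical SD. Pcdh10, which takes part in synapse elimination and binds the WAVE complex of actin regulation, was at 10.71, 10.76, 10.65, 10.59 and 10.49 in the same order. Its L-RUN value was 0.23 below LD. Pcdh18 stayed between 5.90 and 5.93 in all 5 libraries. Pcdh8 (arcadlin), an activity-induced gene that promotes endocytosis of N-cadherin, went the other way, with 12.001 in LD and 12.06 in CE, and 12.12 in H-RUN, 12.10 in RUN and 12.10 in L-RUN. The highest of its differences from LD, 0.12 in H-RUN, was 4.35 times the technical SD and below the cut-off.

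Outside these groups, Pcdh20 was at 12.99 in LD and 12.83 in CE, and 12.88 in H-RUN, 12.83 in RUN and 12.78 in L-RUN. Like Pcdh19 it was highest in LD, and L-RUN was 0.20 lower than LD. Pcdh15, known from the tip links of inner ear hair cells, was at 8.69 in LD and between 8.53 and 8.68 in the other 4 libraries. Pcdh12, known from the endothelium, had a mean of 4.72 and fell below the minimum.

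**Figure D2:**
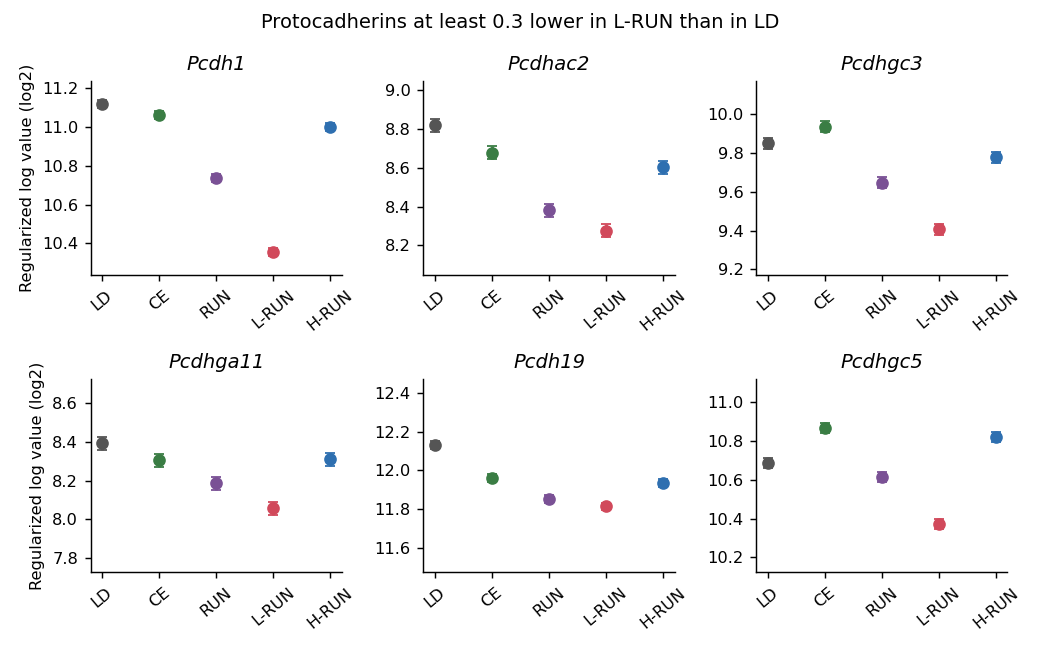
Regularized log values (log2) of the 6 protocadherins that were at least 0.3 lower in L-RUN than in LD, 1 point per library, with error bars of 1 technical SD of a single library and a span of 1 unit on each vertical axis. Pcdh1 is at 11.12 in LD, 11.00 in H-RUN and 10.36 in L-RUN, while Pcdhgc5 is higher in CE (10.87) and H-RUN (10.82) than in LD (10.69).

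To show what lies before the starts of Pcdh8, above LD in every other group, and of Pcdh19, the member past the cut-off that has an entry in the promoter table, the bases upstream of their RefSeq starts (GRCm38.p6) are given, without bases that the GENCODE annotation places in the gene. The stretch of Pcdh8 is chr14:79771313-79771562 (250 bases, minus strand) and that of Pcdh19 is chrX:133689045-133689243 (199 bases, minus strand). Capitals mark CGCT on either strand (CGCT or AGCG), the core of an element shared by most promoters of clustered protocadherins.
Pcdh8: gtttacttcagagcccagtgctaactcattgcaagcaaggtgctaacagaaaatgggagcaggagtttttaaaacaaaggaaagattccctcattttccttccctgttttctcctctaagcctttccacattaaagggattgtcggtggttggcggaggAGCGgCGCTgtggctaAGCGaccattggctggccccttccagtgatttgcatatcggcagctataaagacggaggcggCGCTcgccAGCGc
Pcdh19: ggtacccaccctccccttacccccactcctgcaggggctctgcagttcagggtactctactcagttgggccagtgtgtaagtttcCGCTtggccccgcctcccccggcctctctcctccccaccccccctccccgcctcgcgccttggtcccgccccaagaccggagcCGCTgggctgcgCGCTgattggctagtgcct
Pcdh8 had 5 matches in this stretch and Pcdh19 had 3. Over 250 bases upstream, CGCT was in 10 of 10 promoters of the 9 non-clustered members matched by symbol. The promoter entries of Pcdh9 overlap and are not separate sequences. Of all 32851 promoters, 55.7% held CGCT, which its short length makes frequent. A match is a description of these letters only.

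The clustered genes lie side by side on chromosome 18 (mm10), Pcdha first, then Pcdhb and Pcdhg. Members of Pcdha and of Pcdhg each share constant exons at the 3′ end, and many variable exons are near copies. How reads shared between members were counted is not given in the sources used here, so that the split among neighbours is uncertain. The gene models Pcdha4 and Pcdha4-g overlap, and Pcdha4-g was listed at 0 in all 5 libraries while Pcdha4 had a mean of 3.05. The members below a mean of 5 were Pcdha1, Pcdha4, Pcdha4-g, Pcdha7, Pcdha8, Pcdhb1 and Pcdhgb8 in the clusters. The members nearest to the minimum were Pcdha7 outside it, at 4.99, and Pcdhb6 and Pcdhb21 inside it, at 5.0.

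The Pcdha cluster was led by its C-type gene Pcdhac2, which is needed for the tiling of serotonergic axons. Pcdhac2 (37143678 to 37187663) was at 8.82 in LD and 8.68 in CE, and 8.60 in H-RUN, 8.38 in RUN and 8.28 in L-RUN. The values of all 4 other groups were below LD, by 0.14 in CE, 0.22 in H-RUN, 0.44 in RUN and 0.54 in L-RUN (technical SD 0.05). The L-RUN level was 68.6% of that in LD. The other C-type gene of this cluster, Pcdhac1, had values from 5.60 in L-RUN to 5.68 in CE and LD. Of the alternate isoforms, Pcdha12 had the largest difference in L-RUN, with 6.94 in LD and 6.86 in CE, and 6.79 in H-RUN, 6.75 in RUN and 6.68 in L-RUN. The smallest differences were those of Pcdha3 (-0.04) and Pcdha11 (-0.06). All 10 expressed Pcdha genes were below LD in L-RUN, with a median of -0.10, beside 50.7% of all expressed genes. For 9 of them L-RUN held the lowest of 5 values, beside 28.1%, and 5 were lower by 3 technical SD, beside 19.5%.

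The Pcdhb genes, each a single exon without the shared constant exons, differed least. Of 21 expressed genes, 18 were below LD in L-RUN, beside 50.7% of all expressed genes. The median was -0.08, and none was lower by 0.3, beside 2.33%, or higher, beside 0.797%. By 3 technical SD, 5 of the 21 were lower (23.8%), beside 19.5% of all expressed genes. The largest difference was that of Pcdhb16 (-0.26, technical SD 0.05), with 8.13 in LD and 8.02 in CE, and 8.02 in H-RUN, 7.97 in RUN and 7.87 in L-RUN. It was followed by Pcdhb11 (-0.17). The most positive were Pcdhb7 (0.05) and Pcdhb18 (0.05), about 1 technical SD above LD. The 3 Pcdhb genes with the highest values were Pcdhb9, Pcdhb17 and Pcdhb7. Pcdhb9 was at 8.92 in LD and 8.98 in CE, and 9.01 in H-RUN, 8.98 in RUN and 8.86 in L-RUN, a span of which H-RUN held the top and L-RUN the bottom. H-RUN was the highest of the 5 libraries for 9 of the 21 Pcdhb genes, beside 14.7% of all expressed genes, and L-RUN the lowest for 14, beside 28.1%.

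Pcdhg was lower in L-RUN throughout. All 21 expressed Pcdhg genes had their lowest value in L-RUN, beside 28.1% of all expressed genes. With the trend over transcript length removed, 20 of 21 did. Because these genes share constant exons and the counting of shared reads is unknown, they may not be separate measurements. Their differences from LD lay between -0.45 (Pcdhgc3) and -0.06 (Pcdhga5), with a median of -0.20. Of the 21, 15 were lower by 3 technical SD, beside 19.5% of all expressed genes. In H-RUN, the pool of the other 4 runners, the median was -0.04 and none was lower by 3 technical SD, beside 10.4%. Pcdhgc3, whose protein takes part in the growth of dendrites of cortical neurons, was at 9.85 in LD and 9.94 in CE, and 9.78 in H-RUN, 9.65 in RUN and 9.41 in L-RUN. L-RUN lay below the other 4 libraries and reached 73.4% of LD (difference -0.45, technical SD 0.04). Pcdhgc5, whose protein is found at a subset of GABAergic synapses, was at 10.69 in LD and 10.87 in CE, and 10.82 in H-RUN, 10.61 in RUN and 10.37 in L-RUN. CE and H-RUN were thus above LD, by 0.18 and 0.13, while L-RUN was 0.31 below it (technical SD 0.04). Pcdhgc4, which is needed for the survival of interneurons, was at 6.86, 6.97, 6.84, 6.78 and 6.73 in the same order, so that CE was the highest library here too.

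Of the A-type Pcdhg genes, Pcdhga11 was at 8.39 in LD and 8.31 in CE, and 8.31 in H-RUN, 8.19 in RUN and 8.06 in L-RUN, a difference of -0.33 in L-RUN (technical SD 0.05). Against LD and CE averaged, the difference of Pcdhga11 was -0.29. Pcdhga7, at 7.42 in LD and 7.19 in L-RUN, and Pcdhga3, at 7.65 in LD and 7.40 in L-RUN, differed less from LD but had a range of at least 0.3 over the 5 libraries, since Pcdhga7 was highest in CE (7.50) and Pcdhga3 in H-RUN (7.71). Pcdhga1 had one of the smallest differences in L-RUN (-0.07). The 12 A-type and 6 expressed B-type genes had medians of -0.17 and -0.20. With Pcdh1, Pcdh19, Pcdhac2, Pcdhga11, Pcdhgc3 and Pcdhgc5, a range of at least 0.3 was found for 8 of 63 members, beside 5.12% of all expressed genes.

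**Figure D3:**
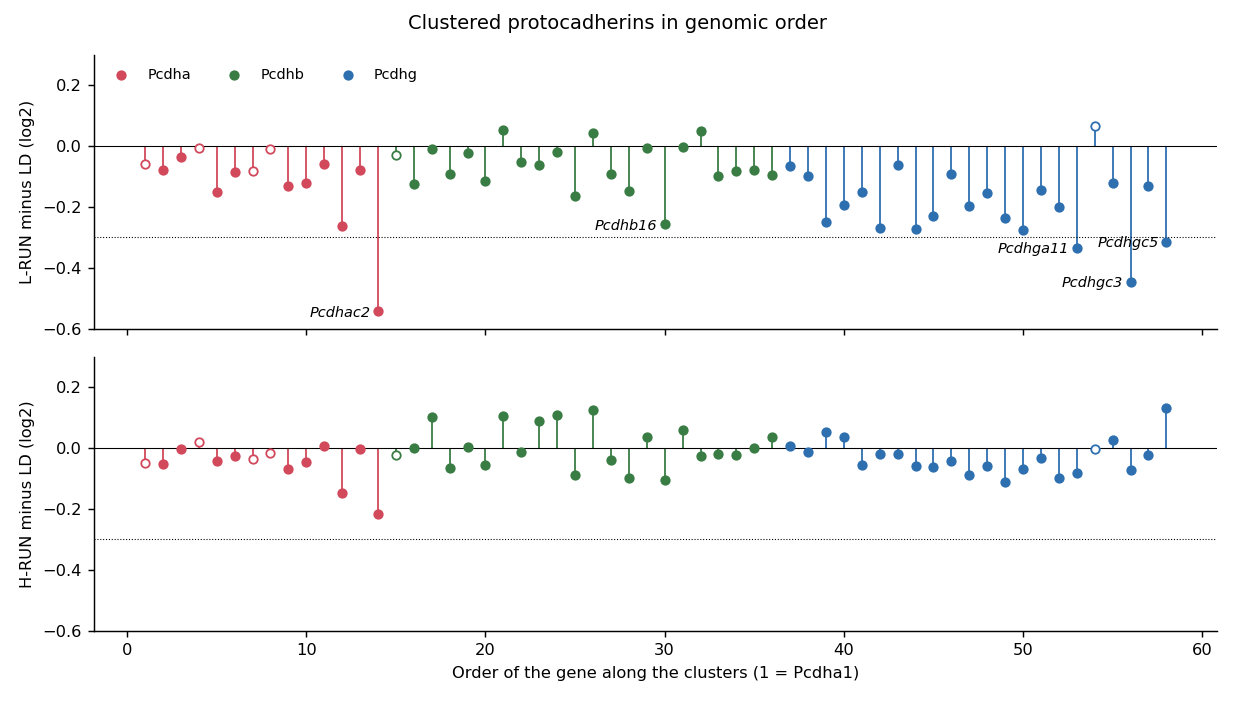
Difference from LD (log2) of the clustered genes in their order along the chromosome, in L-RUN above and H-RUN below, with filled points for expressed genes, open points for those under the minimum and a dotted line at -0.3. In L-RUN, all filled points of Pcdhg lie below 0, between -0.06 and -0.45, while Pcdhb points lie on both sides.

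Summed on the linear scale over all its genes, Pcdhg in L-RUN was at 83.0% of its LD level, beside 105% in CE, 100.3% in H-RUN and 92.8% in RUN. Its C-type genes were at 78.5% in L-RUN and 111% in CE, and its A-type and B-type genes at 87.0% and 86.2% in L-RUN. The C-type genes made up 45.3% of the Pcdhg sum in LD, 47.5% in CE and 42.9% in L-RUN. Pcdha was at 81.9% of LD in L-RUN, of which the C-type genes were at 71.3% and the alternate isoforms at 91.6%. Pcdhb was at 96.4% and the non-clustered genes at 86.7%. These sums weight genes by read count and not by transcripts, and shrinkage brings each closer to 100%.

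CE differed little from LD. No member was lower or higher by 0.3, beside 0.266% and 0.332% of all expressed genes, and the median difference was -0.001. Of the Pcdhg genes, 16 of 21 were above LD, with a median of 0.03, and CE held the highest of the 5 values for 15, beside 22.9% of all expressed genes. Of the Pcdha genes, 9 of 10 were below LD, with a median of -0.04. Of all expressed genes, 50.8% were below LD in CE. Over the 63 members, 4 were lower by 3 technical SD in CE (the non-clustered genes Pcdh17, Pcdh19, Pcdh20 and Pcdh9), beside 13% of all expressed genes, and 2 were higher (Pcdhgc5 and Pcdh11x), beside 10.7%. Both counts are below the general share.

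By the number of members past the cut-off, the running pool as a whole lay between its parts. In RUN, 2 members were lower by 0.3, Pcdh1 (-0.38) and Pcdhac2 (-0.44), beside 0.952% of all expressed genes, and none was higher, beside 0.362%. The RUN value lay between those of L-RUN and H-RUN for 43 of 63 members, with 11 of 21 in Pcdhb and 19 of 21 in Pcdhg. Since RUN pooled the same mice, such an order follows from the design and is no result about the members. The share over all expressed genes was not taken. In H-RUN, no member was lower or higher by 0.3, beside 0.472% and 0.354% of all expressed genes. Its median difference was -0.03, with 6 members lower and 3 higher by 3 technical SD, beside 10.4% and 8.39% of all expressed genes, so that the members were not above the general share. The 6 lower ones were Pcdh1, Pcdh17, Pcdh19, Pcdh20, Pcdha12 and Pcdhac2, and the 3 higher ones were Pcdh7, Pcdh8 and Pcdhgc5.

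Set directly against H-RUN, with LD left out, L-RUN was lower for 61 of 63 members, with a median of -0.09, beside 51.4% of all expressed genes and a median of -0.003. The cut-off was passed by 5 members on the lower side, beside 0.974% of all expressed genes, and by none on the higher, beside 0.561%. They were Pcdh1 (-0.65), Pcdhgc5 (-0.45), Pcdhgc3 (-0.37), Pcdhac2 (-0.33) and Pcdhga3 (-0.30). Pcdh19, lower in both pools of runners, differed between them by only -0.12. The median was -0.13 for Pcdhg, -0.07 for Pcdha, -0.06 for Pcdhb and -0.10 for the non-clustered genes. Both pools held 4 mice, and whether they differed for other reasons than the distance run cannot be told apart.

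Levels of different genes can be compared only per length, here as the mean value less log2 of the kilobases of exon that no other gene shares. This measure takes reads of shared exons as not counted, which is not known. If they were counted, Pcdha and Pcdhg genes come out too high. It also takes the exons of all annotated transcripts together, which lowers genes with long alternative exons, such as Pcdh10. By this measure, the non-clustered Pcdh20 (10.40) and Pcdh8 (10.08) led, followed by Pcdhgc5 (9.28), Pcdh19 (8.58), Pcdhgc3 (8.36), Pcdh9 (8.32), Pcdh1 (7.77) and Pcdh17 (7.72). The next were Pcdhb9 (7.34), Pcdh7 (6.98) and Pcdhac2 (6.95). Among members with such a length, Pcdhgc5 and Pcdhgc3 were the highest of Pcdhg and Pcdhac2 of Pcdha, while the C-type genes Pcdhgc4 (5.30) and Pcdhac1 (4.30) were below several alternate isoforms. Pcdh19 and Pcdhgc3, or Pcdh1 and Pcdh17, stand close together, and their order rests on the annotated exons as much as on the reads.

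Genes that work with protocadherins were listed by role. In L-RUN, 2.33% and 0.797% of all expressed genes were lower and higher by 0.3. The lists of 11, 14 and 6 genes were too short to be set against these shares. Of 11 expressed genes for the architecture of the clusters, such as Ctcf and the cohesin subunits Rad21, Smc1a and Smc3, only Wapal (cohesin release) passed the cut-off, in L-RUN, with 10.52 in LD and 10.27 in CE, and 10.38 in H-RUN, 10.30 in RUN and 10.15 in L-RUN. The 14 cytoplasmic partners, such as the WAVE complex and the kinases Ptk2 and Ptk2b that bind the constant part, held none past the cut-off against LD. Against H-RUN, Nckap1 of the WAVE complex was 0.32 lower in L-RUN. Of the 6 genes of the cleavage of protocadherins (Adam10 and gamma-secretase), none passed it in any comparison. Of 27 expressed other members of the cadherin superfamily, Fat4, a giant cadherin of planar polarity, was lower in RUN (-0.41), L-RUN (-0.33) and H-RUN (-0.42). Fat3 was lower (-0.34) and Cdh7 higher (0.41) in L-RUN. In L-RUN, 2 of these 27 were thus lower and 1 higher by 0.3, beside the same 2.33% and 0.797%. The median of these 27 in L-RUN was -0.11, against -0.12 for the protocadherins.

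Long transcripts tended to be lower than in LD in every other group, most of all in L-RUN, and protocadherin transcripts are long. The median of the longest transcript was 8234 bases for the non-clustered members and 4723 for Pcdhg, against 3523 for all expressed genes. At these lengths, the trend over all expressed genes in L-RUN minus LD was -0.11 (median of the non-clustered members) and -0.04 (Pcdhg). With it removed, the median of the non-clustered genes went from -0.20 to -0.06, with 7 of 11 below 0, and that of Pcdhg from -0.20 to -0.15, with 21 of 21 below 0. Pcdha went to -0.03 and Pcdhb to -0.04. Pcdh1 (-0.71), Pcdhac2 (-0.47) and Pcdhgc3 (-0.40) still passed the cut-off, while Pcdhga11 (-0.29), Pcdhgc5 (-0.25) and Pcdh19 (-0.18) did not. Removing a trend with GC content in the same way left the median of Pcdhg at -0.20. The non-clustered median went to -0.17, that of Pcdha to -0.06 (9 genes) and that of Pcdhb to -0.04. Of the 21 Pcdhb genes, 13 were then below 0. Whether the length trend is technical was not tested.

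**Figure D4:**
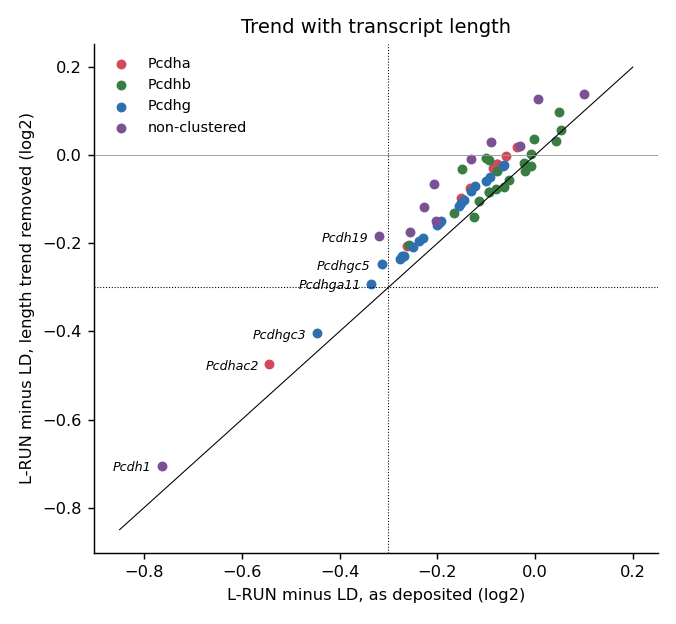
Difference of each expressed protocadherin between L-RUN and LD (log2) as deposited, on the horizontal axis, against the same with the trend over transcript length removed, with a line of equality and dotted lines at -0.3. Pcdh1, Pcdhac2 and Pcdhgc3 stay past the cut-off, and the genes that move furthest from the line are mostly non-clustered (purple), with Pcdh17, Pcdh19 and Pcdh15 first.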

How the data were processed

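DG RNA of mice was sequenced in 5 libraries, 1 per group. Per the labels and methods, the authors used CASAVA 1.8.2, mapped reads to mm10 with TopHat2 2.0.10, counted on RefSeq genes with HTSeq, and normalized all samples at once with DESeq2 1.10.1. The deposited values are regularized log values on a log2 scale, 1 for each gene in each library. Counts were not used here, so the depth is unknown, shrinkage could not be undone, and no count model was fitted.

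Members are all symbols that start with Pcdh. The members and gene lists were chosen with earlier results of these data known. Expressed genes have a mean of at least 5. Differences between libraries were called at 0.3. The technical SD came from the residual of RUN against the mixture of L-RUN and H-RUN (median absolute deviation, in 10 classes of expression level), with a residual variance of 1.5 and a difference variance of 2 times that of a library. Leaving out a library was not possible within a group of 1.

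Named are all expressed non-clustered and all C-type genes, members with a range of at least 0.3, per cluster the 3 of highest mean and the 2 largest and 2 smallest differences in L-RUN, and genes of the related lists past 0.3. Gene coordinates, exons, lengths (94.2% of expressed genes) and GC content came from GENCODE M21 (GRCm38), and promoters from RefSeq. Wapal is listed in RefSeq as a synonym of Wapl. Trends were removed with lowess (fraction 0.3). Alternatives were a cut-off of 0.4, centring, quantile normalization, a minimum mean of 7 or none, removed trends and LD and CE averaged as baseline. Scripts were tested on simulated data and used statsmodels 0.14.6, scipy 1.17.1, matplotlib 3.10.9, pandas 2.3.3 and numpy 2.4.6 in python 3.11.15.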

Additional observations from a re-analysis of the deposited data

Results flagged for a closer look

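Pcdhgc5 was the only member with differences from LD in opposite directions, 1 of at least 0.3 and the other of at least 3 technical SD. It was 0.31 below LD in L-RUN and above it by 0.13 in H-RUN and 0.18 in CE, so that L-RUN minus H-RUN came to -0.45 and L-RUN minus CE to -0.50. With 1 library per group, the difference was not tested. In the same libraries the summed leptomeningeal markers were above LD by 1.45 in L-RUN and 0.24 in CE. In H-RUN their sum was 0.16 below LD. The median differences of these markers were 0.68, 0.13 and -0.04 in L-RUN, CE and H-RUN. Their part in the Pcdhgc5 pattern was not tested.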

How the results depend on the processing

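None of the 13 member differences past the cut-off changed direction under any alternative tried. Of the counts and medians, 99 values stayed close to those reported, among them all counts under centring, quantile normalization, no minimum and removal of the GC trend. A cut-off of 0.4 lowered the members past it to 1 in RUN, 3 in L-RUN and 2 in L-RUN against H-RUN. Removing the trend with transcript length left 3 members in L-RUN (Pcdh1, Pcdhac2 and Pcdhgc3) and 3 in L-RUN against H-RUN. It moved the median of the non-clustered genes to -0.0607 in RUN, -0.0644 in L-RUN, -0.0139 in H-RUN and -0.0494 in L-RUN against H-RUN, and that of the clustered genes to -0.0758 in L-RUN. With LD and CE averaged as baseline, the non-clustered median in L-RUN was -0.13 and 4 members passed the cut-off. With a minimum mean of 7, 32 of 41 members had their lowest value in L-RUN, the smaller count coming from the fewer genes. Pcdh19 in L-RUN went below the cut-off most often, with -0.29 under quantile normalization and under GC removal, -0.18 under length removal and -0.23 with the mean baseline. For RUN against the mixture, the mean of log values gave the same largest residual, 0.10. No paired analysis was possible because each group is 1 library. No value here covers the spread between mice.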
